A study of Mus musculus with 9 samples.

Results

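Collagen chains are the polypeptides that wind 3 at a time into the triple helices of the extracellular matrix, and mice carry them in a gene family named by collagen type and chain. The members described here are all genes of the deposited expression table whose symbol has the form Col, a number, the letter a and a number, whatever their level. They numbered 44 of 22183 genes. Sorted by the kind of assembly they build, 11 were fibrillar, 9 belonged to the FACIT collagens (fibril-associated collagens with interrupted triple helices), 8 to basement membranes, 6 to the beaded filaments of collagen VI, 4 to networks or anchoring fibrils, 4 to transmembrane collagens and 2 to none of these. The RNA came from mouse tibia, in 3 groups of 3 libraries. The naive mice had no treatment, the Ti mice were given titanium particles, and the Ti+I-OG mice were given titanium particles together with I-OG, a natural-polymer hydrogel that is injected and carries irisin, a hormone released by muscle. Titanium particles serve as a model of aseptic loosening, in which wear debris of an implant leads to loss of bone around it without infection. A treatment of 5 weeks is given for the hydrogel. Neither the strain and age nor the particle dose is given in the sources used here. The naive mice are labelled as untreated and no group had the hydrogel without irisin, so effects of particles and of their placement cannot be told apart, and neither can those of irisin and its carrier. No source states that the libraries of a group were separate animals, so each p-value measures the spread between these libraries, which may be technical.

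Type I collagen, a trimer of the Col1a1 and Col1a2 products, is the main protein of bone and tendon. Type III is abundant in fibrous and healing tissue, types V and XI are built into the core of fibrils and limit their width, and type II is the fibril of cartilage, where type IX sits on its surface. Type X is the network collagen of hypertrophic chondrocytes in the growth plate. The FACIT collagens XII, XIV and XVI lie on fibrils of connective tissue, type IV forms the sheet of basement membranes, and type VI a filament around cells.

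Total estimated counts ran from 16256082 to 24766516 per library, and 36 of the 44 chains passed the filter on low counts. The libraries held the markers of bone: a sum of 10 osteoblast genes, such as Bglap and Ibsp, ran from 963 to 4038 CPM (counts scaled to a common library size and for composition with the trimmed mean of M-values) and was lowest in naive replicate 3. Markers of skin summed to at most 1.70 CPM, whereas those of skeletal muscle reached 890 to 7190 CPM, so muscle was in the samples. Markers of red cell precursors summed to 169365 to 183801 CPM in Ti+I-OG against 29937 to 103148 CPM in the other groups. In some libraries the collagens stood apart from the rest of the group. Naive replicate 3 was low in most fibrillar chains and high in Col4a1 and Col4a2. Ti+I-OG replicate 3 was low in Col2a1, the type IX chains and Col10a1, but not in Col11a2. Naive replicate 1 was high in Col10a1, at 123 against 15.1 and 12.7 CPM, and in Col9a1 and Col2a1. Calls that were lost or gained without both naive replicate 3 and Ti+I-OG replicate 3 are given with each comparison with naive. That step was chosen after the data were seen and kept naive replicate 1.

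The family as a whole took a small part of each library. Its share of all counts was 0.409%, 0.340% and 0.188% in the 3 naive libraries, 0.874%, 0.760% and 0.992% in Ti, and 0.415%, 0.526% and 0.628% in Ti+I-OG. The lowest Ti library was above every library of the other groups, and the 3 Ti+I-OG libraries were all above the naive ones. Because the RNA is of bulk tissue, more collagen-making cells and more collagen RNA per cell cannot be told apart. Between genes, levels were compared in FPKM, the authors' fragment counts scaled by transcript length and library size. The Col1a1 and Col1a2 chains together made up 55.2% to 78.4% of the summed collagen FPKM, and all fibrillar chains 76.6% to 92.5%. On that scale the order of the means over 9 libraries was Col1a2 at 481, Col1a1 at 247, Col3a1 at 70.6, Col2a1 at 48.0, Col10a1 at 37.5, Col11a1 at 36.4 and Col5a2 at 28.3 FPKM. Within each library Col1a2 was above Col1a1 and Col1a1 above Col3a1, whereas the ranges of the later neighbours overlapped over the 9 libraries and did not fix their order. Col3a1 held 1.86% to 3.01% of the collagen FPKM in naive, 3.52% to 11.7% in Ti and 4.50% to 9.23% in Ti+I-OG, with no overlap between naive and the other groups.

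**Figure D1:**
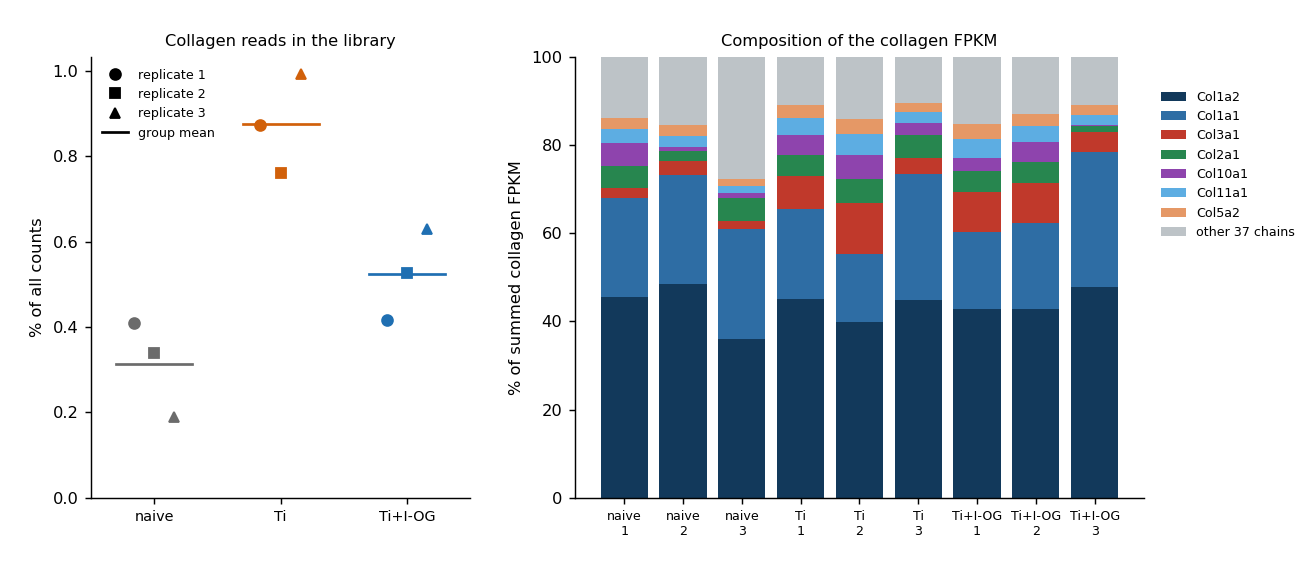
The left panel plots the share of all counts that fell on the 44 collagen chains (percent, 1 point per library, line at the group mean), and the right panel the share of 7 chains in the summed collagen FPKM of each library (stacked bars, percent). The Ti libraries lie at 0.760% or above and all others at 0.628% or below, and the red Col3a1 band is narrowest in the 3 naive libraries.

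Against naive, the Ti libraries had higher levels of 18 of the 36 tested collagen chains and lower levels of none, in edgeR's quasi-likelihood test with Benjamini-Hochberg adjusted p under 0.05 over 14211 genes. Of all genes tested, 4.05% were called higher, 2.39% lower and 6.43% in either direction. In 28 chains every Ti library was above every naive library, which held for 14.3% of all genes. The log2 fold change was above 0 in 34 of 36 chains, with a median of 1.18, and its median over all genes was 0.01. By class, 8 of 11 fibrillar chains passed, 4 of 8 tested FACIT chains, 1 of 5 of basement membranes, 2 of 4 beaded filament chains, 2 of 4 network or anchoring chains, 1 of 3 transmembrane chains and 0 of 1 of the others. The number called rested on single libraries: it was 8 without naive replicate 3, 3 without Ti replicate 1 and 3 without Ti replicate 2, in which 213, 100 and 105 of all genes were called. None of the 18 changed sign in any of these fits. Over the 9 fits with 1 library left out, Col1a1 passed in 2, Col11a2, Col22a1 and Col8a2 in 3 and Col5a1 in 4, whereas Col3a1, Col12a1 and Col16a1 passed in all 9. Without both naive replicate 3 and Ti+I-OG replicate 3, 12 chains were called: 10 of the 18 kept their call, Col9a2 and Col9a3 gained one, and 8 lost it. Those 8 were Col1a1, Col5a1, Col11a2, Col14a1, Col6a1, Col8a1, Col8a2 and Col13a1, with adjusted p from 0.0528 to 0.0751.

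**Figure D2:**
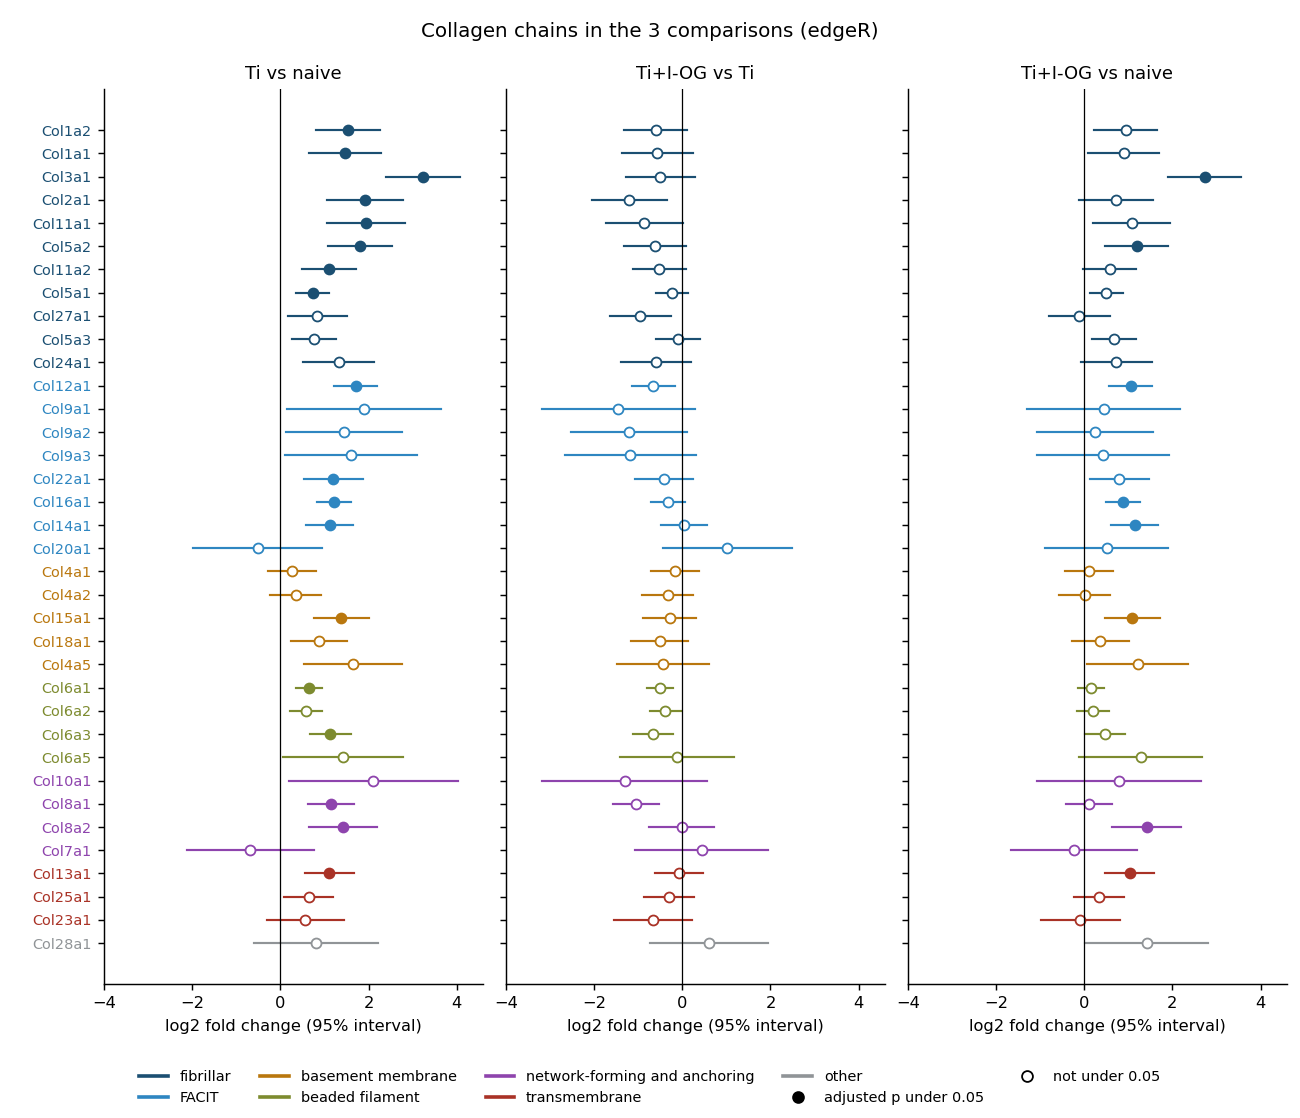
Log2 fold change (x axis) with its 95% interval for the 36 tested collagen chains (y axis, coloured by class) in the 3 comparisons, from edgeR. Filled points have an adjusted p under 0.05: 18 chains in Ti vs naive, none in Ti+I-OG vs Ti and 8 in Ti+I-OG vs naive.

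Both type I chains, the bulk of the bone matrix, rose in Ti. Col1a2 was at 1783, 1591 and 623 CPM in naive replicates 1 to 3, 4039, 3206 and 4405 CPM in Ti and 2022, 2598 and 3036 CPM in Ti+I-OG. Col1a1 was at 977, 904 and 477 CPM in naive replicates 1 to 3, 2018, 1364 and 3106 CPM in Ti and 915, 1321 and 2148 CPM in Ti+I-OG. Naive replicate 3 was lowest and no naive library reached the lowest Ti library, while the ranges of Ti and Ti+I-OG overlapped for Col1a1 and not for Col1a2. In Ti against naive the log2 fold change was 1.54 ± 0.33 (SE, adjusted p = 0.0239) for Col1a2 (identifier ENSMUSG00000029661) and 1.46 ± 0.37 (SE, adjusted p = 0.0417) for Col1a1 (ENSMUSG00000001506). Col1a1 passed in 8 of 19 other fits, and its adjusted p was 0.0750 without naive replicate 3 and Ti+I-OG replicate 3, while Col1a2 passed in 16 of 19. Type I trimers hold more of the Col1a1 than of the Col1a2 product, and the ratio of Col1a2 to Col1a1 was above 1 on the FPKM scale in every library, from 1.45 to 2.61, and its mean ± SD over 3 libraries was 1.81 ± 0.32 for naive, 2.13 ± 0.52 for Ti and 2.07 ± 0.45 for Ti+I-OG.

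Col3a1 (ENSMUSG00000026043), whose product forms the type III homotrimer, had the largest fold change of the family in both comparisons with naive. Col3a1 was at 71.8, 61.0 and 33.1 CPM in naive replicates 1 to 3, 519, 724 and 317 CPM in Ti and 363, 513 and 229 CPM in Ti+I-OG. All 6 particle-treated libraries were above all naive libraries, and replicate 3 was lowest in each group. Col3a1 was 9.40-fold higher in Ti than in naive, a log2 difference of 3.23 ± 0.39 (SE, adjusted p = 0.00213). Relative to Col1a1, the log2 ratio of Col3a1 in FPKM had a mean ± SD over 3 libraries of -3.33 ± 0.36 for naive, -1.61 ± 1.33 for Ti and -1.60 ± 1.02 for Ti+I-OG. It was higher in Ti than in naive by 1.72 and in Ti+I-OG than in naive by 1.73, each with p = 0.1 in an exact two-sided permutation test, the smallest p that 3 against 3 libraries allow. On the FPKM scale, Ti replicate 3 had a plain Col3a1 to Col1a1 ratio of 0.123, just above the highest naive library at 0.121. In CPM the log2 ratio had a mean ± SD of -3.84 ± 0.06 for naive and -2.06 ± 1.19 for Ti. The transcript length that counts and FPKM imply for Col3a1 ran from 3299 to 5486 bases in naive.

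The next gene to Col3a1 among the protein-coding genes of mouse chromosome 1 is Col5a2, a chain of the fibril core that pairs with the Col5a1 product. Col5a2 was at 116, 98.96 and 35.8 CPM in naive replicates 1 to 3, 309, 334 and 236 CPM in Ti and 195, 210.2 and 169 CPM in Ti+I-OG. Col5a1 was at 38.7, 43.2 and 41.0 CPM in naive replicates 1 to 3, 64.4, 58.9 and 81.6 CPM in Ti and 46.7, 56.5 and 70.9 CPM in Ti+I-OG. Both rose in Ti, with log2 differences of 1.81 ± 0.33 (SE, adjusted p = 0.0153) for Col5a2 and 0.74 ± 0.17 (SE, adjusted p = 0.0299) for Col5a1. The Col5a2 to Col5a1 ratio in FPKM was 0.685 to 1.60 in naive, 1.79 to 3.31 in Ti and 1.34 to 1.90 in Ti+I-OG. The Ti libraries were all above the naive ones on that scale only. With the CPM above, the ratio in naive replicate 1 was higher than that in Ti replicate 3. The transcript length that counts and FPKM imply for Col5a1 varied from 2983 bases in Ti+I-OG replicate 2 to 5188 in naive replicate 3. The third chain of type V, Col5a3, was 1.70-fold higher in Ti with all 3 libraries above naive, and did not pass (adjusted p = 0.0669).

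Type XI chains form the core of cartilage fibrils. Col11a1 was at 119, 76.0 and 25.3 CPM in naive replicates 1 to 3, 308, 315 and 220.1 CPM in Ti and 169, 167 and 129 CPM in Ti+I-OG. Col11a2 was at 91.9, 74.6 and 39.6 CPM in naive replicates 1 to 3, 141, 112 and 189 CPM in Ti and 89.7, 94.6 and 124 CPM in Ti+I-OG. Naive replicate 3 was lowest for both, and both rose in Ti: the log2 fold change was 1.94 ± 0.41 (SE, adjusted p = 0.0228) for Col11a1 and 1.10 ± 0.28 (SE, adjusted p = 0.0400) for Col11a2. Col11a2 passed in 8 of 19 other fits, with adjusted p = 0.0751 without naive replicate 3 and Ti+I-OG replicate 3. Col2a1, the chain of the cartilage fibril, rose as well. Col2a1 was at 174, 72.6 and 82.0 CPM in naive replicates 1 to 3, 382, 397 and 470.1 CPM in Ti and 199.8, 259 and 82.4 CPM in Ti+I-OG. Every Ti library was above every other library, and the log2 fold change of Ti against naive was 1.93 ± 0.40 (SE, adjusted p = 0.0222). The fibrillar chains of low level, Col24a1 and Col27a1, were higher in all Ti than in all naive libraries without passing, at adjusted p = 0.0533 and 0.117.

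**Figure D3:**
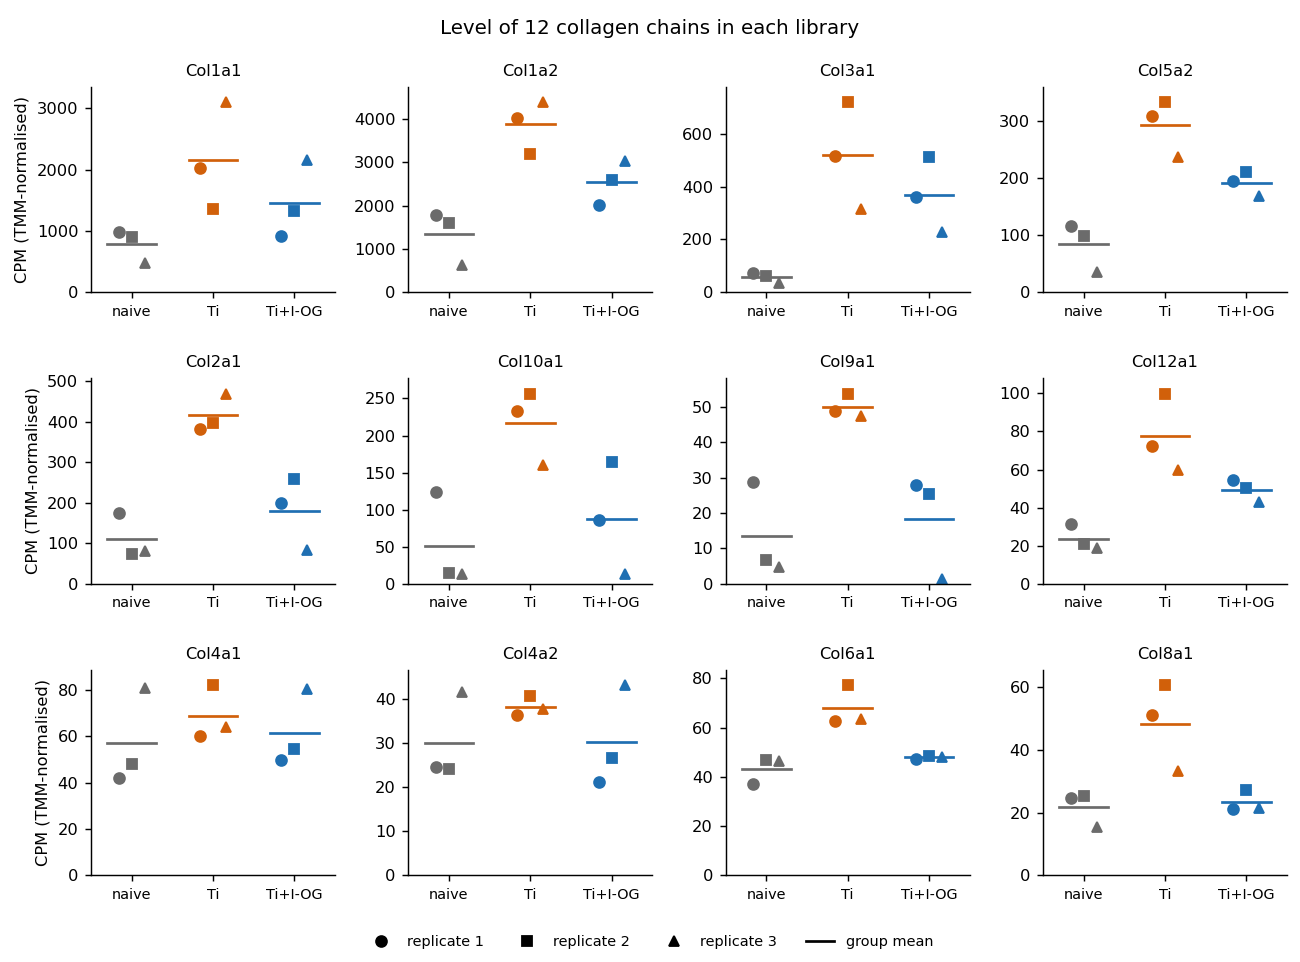
CPM of 12 collagen chains in each library (y axis from 0, 1 point per library, marker shape by replicate number, line at the group mean). Col3a1, Col12a1, Col1a2, Col5a2 and, narrowly, Col6a1 separate naive from both other groups. Every Ti library is above all others for Col1a2, Col5a2, Col2a1, Col9a1, Col12a1, Col6a1 and Col8a1. Col9a1 and Col10a1 split the libraries of naive and Ti+I-OG. Replicate 3 is the highest library of naive and of Ti+I-OG for Col4a1 and Col4a2.

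The upstream sequence of 4 chains is shown. Col1a2, Col3a1 and Col11a1 were called higher in Ti. Col10a1 was not called (adjusted p = 0.152 in edgeR's quasi-likelihood test), though it was 4.30-fold higher with every Ti library above every naive one. The 4 are therefore no contrast of risen and unchanged chains. The windows are the 250 bases before the start in RefSeq's table for GRCm38.p6, 5′ to 3′ on the strand of the gene, which is the plus strand for all 4. Capitals mark CCAAT, as well as the letters TATAAA, and also the run GGGCGG, each in either orientation. Col1a2 is at chr6:4505368-4505617, Col3a1 at chr1:45311288-45311537, Col11a1 at chr3:114030290-114030539 and Col10a1 at chr10:34389731-34389980.
Col1a2: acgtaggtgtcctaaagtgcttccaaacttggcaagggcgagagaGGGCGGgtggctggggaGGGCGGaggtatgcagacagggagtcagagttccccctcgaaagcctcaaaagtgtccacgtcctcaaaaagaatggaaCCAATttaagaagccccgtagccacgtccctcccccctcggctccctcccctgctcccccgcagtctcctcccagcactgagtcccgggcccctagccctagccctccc
Col3a1: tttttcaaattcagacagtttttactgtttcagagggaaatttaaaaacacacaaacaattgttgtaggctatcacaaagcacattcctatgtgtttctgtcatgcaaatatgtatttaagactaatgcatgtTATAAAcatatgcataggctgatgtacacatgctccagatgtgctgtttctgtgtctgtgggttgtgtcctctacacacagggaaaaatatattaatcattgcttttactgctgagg
Col11a1: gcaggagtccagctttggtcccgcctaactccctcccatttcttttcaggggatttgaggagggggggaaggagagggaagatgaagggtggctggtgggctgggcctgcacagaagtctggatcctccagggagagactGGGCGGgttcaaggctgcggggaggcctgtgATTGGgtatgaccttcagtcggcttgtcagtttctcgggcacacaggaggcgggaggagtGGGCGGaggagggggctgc
Col10a1: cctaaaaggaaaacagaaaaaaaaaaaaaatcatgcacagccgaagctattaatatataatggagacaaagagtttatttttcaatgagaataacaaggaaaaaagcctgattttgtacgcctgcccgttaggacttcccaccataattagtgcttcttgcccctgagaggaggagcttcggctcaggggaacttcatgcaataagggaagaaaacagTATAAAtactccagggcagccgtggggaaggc
Col1a2 holds CCAAT 109 bases before its start and GGGCGG in a pair of places, and Col11a1 holds CCAAT on the other strand 79 bases before its start, between matches of GGGCGG at 110 and 19 bases. Col10a1 has TATAAA 32 bases before its start. Col3a1 has TATAAA 117 bases before the listed start and neither of the other motifs. RefSeq's table had 38 windows for 35 of the 44 chains, and Col1a1, Col2a1, Col4a3, Col5a2, Col9a3, Col12a1, Col14a1, Col22a1 and Col26a1 had none. CCAAT occurred in 13 of the 38 windows and in 33.8% of all 32851 windows, TATAAA in 5 and in 12.4%, and GGGCGG in 22 and in 32.7%. The motifs share no letters at these matches, and a match is no more than a run of letters. These sequences carry no measured binding here.

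Of the 8 tested FACIT chains, Col12a1, Col14a1, Col16a1 and Col22a1 rose in Ti, and the 3 chains of cartilage type IX did not pass. Col12a1 encodes type XII, found in tendon, ligament and periosteum. Col12a1 was at 31.4, 20.8 and 18.9 CPM in naive replicates 1 to 3, 72.4, 99.96 and 59.8 CPM in Ti and 54.4, 50.2 and 42.7 CPM in Ti+I-OG. All Ti and Ti+I-OG libraries were above all naive ones, and the log2 fold change of Ti against naive was 1.71 ± 0.23 (SE, adjusted p = 0.00325). Col16a1 was at 7.21, 6.44 and 7.08 CPM in naive replicates 1 to 3, 12.9, 18.5 and 16.9 CPM in Ti and 13.5, 13.5 and 11.4 CPM in Ti+I-OG. Col14a1 was at 7.75, 5.56 and 4.48 CPM in naive replicates 1 to 3, 12.7, 15.5 and 10.4 CPM in Ti and 14.7, 14.6 and 10.2 CPM in Ti+I-OG. The chains of types XVI and XIV again had no naive library in the range of the other groups. Their log2 fold changes in Ti were 1.22 ± 0.18 (SE, adjusted p = 0.00584) for Col16a1 and 1.12 ± 0.24 (SE, adjusted p = 0.0245) for Col14a1. Col22a1, a collagen of tissue junctions such as that of muscle and tendon, was low in naive replicate 3. Col22a1 was at 19.3, 23.7 and 7.67 CPM in naive replicates 1 to 3, 40.5, 35.6 and 40.7 CPM in Ti and 24.8, 29.9 and 33.2 CPM in Ti+I-OG. It was 2.30-fold higher in Ti (adjusted p = 0.0407), and the libraries of Ti lay above those of both other groups. Col20a1, near the limit of detection at 0.14 to 0.84 CPM, was -0.51 ± 0.67 (SE) on the log2 scale and did not pass (adjusted p = 0.653).

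Type IX is a trimer of the Col9a1, Col9a2 and Col9a3 products on cartilage fibrils, and its chains split the libraries within groups. Col9a1 was at 28.7, 6.68 and 4.69 CPM in naive replicates 1 to 3, 49.0, 53.8 and 47.4 CPM in Ti and 28.0, 25.5 and 1.25 CPM in Ti+I-OG. Col9a2 was at 16.4, 8.17 and 15.1 CPM in naive replicates 1 to 3, 35.1, 37.7 and 35.3 CPM in Ti and 20.0, 25.5 and 1.64 CPM in Ti+I-OG. In Ti+I-OG replicate 3 all 3 type IX chains were at 1.64 CPM or less, under every other library, and naive replicate 1 was the highest naive library for each. All Ti libraries were above all naive and all Ti+I-OG libraries, but the fold changes, 3.72 for Col9a1, 2.72 for Col9a2 and 3.04 for Col9a3, had adjusted p from 0.153 to 0.160. Col10a1, which marks the hypertrophic zone, split alike. Col10a1 was at 123, 15.1 and 12.7 CPM in naive replicates 1 to 3, 234, 257 and 160.0 CPM in Ti and 86.2, 164 and 13.3 CPM in Ti+I-OG. Its level in Ti was 4.30-fold that in naive, with adjusted p = 0.152. Leaving out both naive replicate 3 and Ti+I-OG replicate 3, the step that cost 8 other chains their call, gave adjusted p = 0.0192 for Col9a2 and 0.0319 for Col9a3, against a range over the other alternatives of 0.0116 to 0.335 and 0.0190 to 0.396. Exons of Col9a3 overlap those of Tcfl5, and exons of Col10a1 those of Nt5dc1, on opposite strands, so reads of these pairs may be mixed. The chondrocyte markers were read beside these chains: 12 listed genes summed to 152, 156 and 130 CPM in naive, 524, 647 and 365 CPM in Ti and 308, 355 and 151 CPM in Ti+I-OG. In Ti+I-OG replicate 3, Hapln1 was at 2.32 CPM and Matn3 at 0.34 CPM, against 38.9 to 50.8 and 9.62 to 13.2 CPM in the other 2 libraries, while Prg4, which the joint surface also makes, was at 103 CPM and within their range. The summed markers did not set naive replicate 1 apart. Its Matn3, at 9.87 CPM, was above 2.19 and 4.15 CPM in the other naive libraries. Naive replicate 1 was also the highest naive library for Hapln1, Cnmd, Epyc, Ihh and Ucma, but not for Acan, Comp, Matn1, Prg4, Snorc and Sox9. The part of the cartilage content of each sample in these results was not tested.

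**Figure D4:**
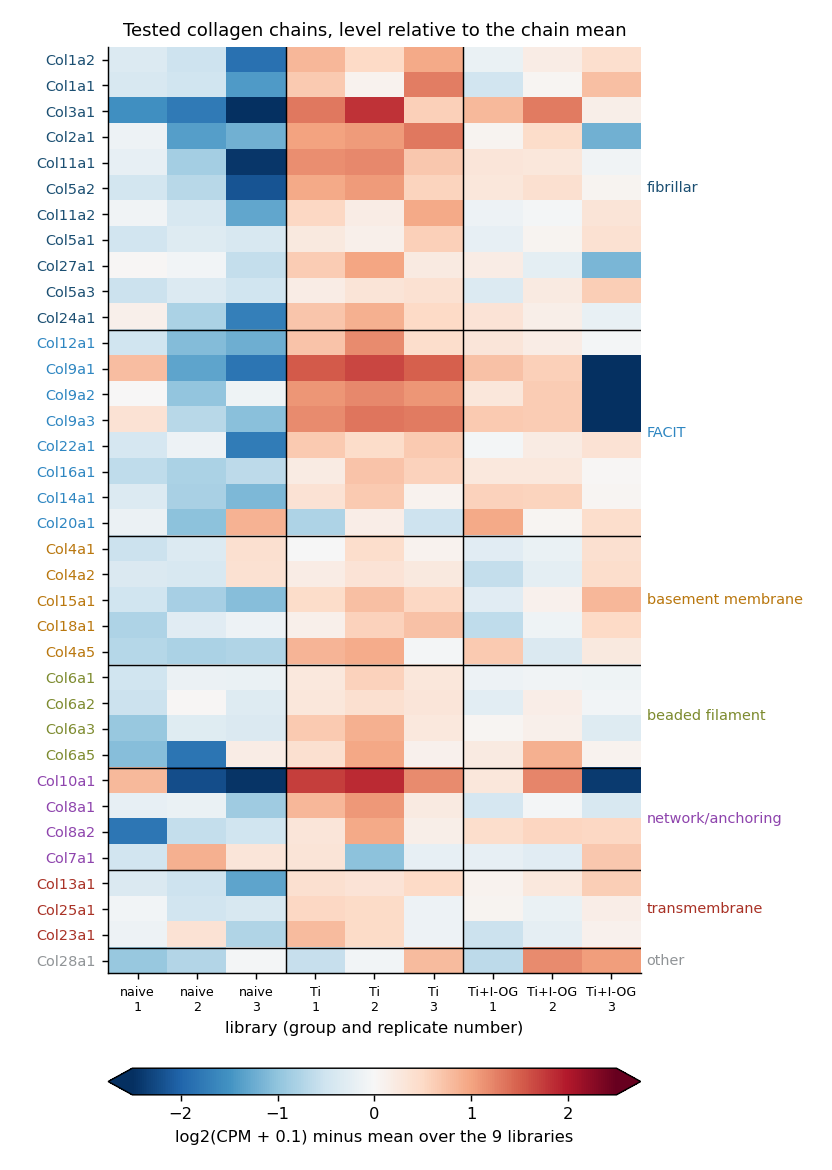
Level of the 36 tested collagen chains (rows, by class) in the 9 libraries (columns), as log2(CPM + 0.1) minus the chain's mean over the libraries (colour scale from -2.5 to 2.5, values beyond it in the end colours). The 3 Ti columns are mostly above the mean, naive replicate 3 is lowest in many fibrillar rows, and the lowest cells of Ti+I-OG replicate 3 are the type IX chains and Col10a1.

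The 5 tested basement membrane chains had a median log2 fold change of 0.88 in Ti against naive, where that of the fibrillar chains was 1.46. Col4a1 and Col4a2 lie head to head on mouse chromosome 8 and form the common type IV trimer. Col4a1 was at 42.1, 48.3 and 80.8 CPM in naive replicates 1 to 3, 60.2, 82.1 and 64.3 CPM in Ti and 49.8, 54.5 and 80.4 CPM in Ti+I-OG. Col4a2 was at 24.7, 24.1 and 41.6 CPM in naive replicates 1 to 3, 36.4, 40.7 and 37.8 CPM in Ti and 21.2, 26.7 and 43.2 CPM in Ti+I-OG. The groups overlapped for both genes, with replicate 3 the highest naive and the highest Ti+I-OG library for each. The log2 fold change in Ti against naive was 0.27 ± 0.25 (SE, adjusted p = 0.504) for Col4a1 and 0.35 ± 0.26 (SE, adjusted p = 0.415) for Col4a2, with 95% intervals of -0.27 to 0.82 and -0.23 to 0.92. The exons of the 2 genes overlap on opposite strands in the annotation, and the library kit does not mark strand, so part of the reads could belong to either. Summed markers of the endothelium, which rests on such a membrane, ran from 262 to 291 CPM in naive and from 290.0 to 327 CPM in Ti, and replicate 3 was the highest library of naive and of Ti+I-OG for this sum too. Col15a1, a proteoglycan collagen next to basement membranes of muscle and vessels, was the chain of the class that rose. Col15a1 was at 4.48, 3.503 and 2.97 CPM in naive replicates 1 to 3, 8.78, 10.7 and 9.06 CPM in Ti and 5.16, 6.87 and 11.4 CPM in Ti+I-OG. Naive was lowest without overlap, and the log2 fold change was 1.38 ± 0.28 (SE, adjusted p = 0.0224). Col18a1, the precursor of endostatin, was 1.84-fold higher in Ti with no overlap (adjusted p = 0.0895), and Col4a5 was 3.13-fold higher at 0.54 to 1.15 CPM in Ti (adjusted p = 0.0723).

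Collagen VI is assembled from the Col6a1, Col6a2 and Col6a3 products. Col6a1 was at 36.9, 46.7 and 46.5 CPM in naive replicates 1 to 3, 62.6, 77.2 and 63.5 CPM in Ti and 47.3, 48.6 and 48.2 CPM in Ti+I-OG. Col6a2 was at 29.2, 43.3 and 33.9 CPM in naive replicates 1 to 3, 51.2, 56.0 and 52.5 CPM in Ti and 35.2, 47.4 and 40.1 CPM in Ti+I-OG. Col6a3 was at 18.0, 27.9 and 26.8 CPM in naive replicates 1 to 3, 54.3, 64.0 and 41.4 CPM in Ti and 35.7, 37.6 and 27.5 CPM in Ti+I-OG. For each of the 3 the lowest Ti library was above the highest naive and the highest Ti+I-OG library. In Ti against naive the log2 fold change was 0.65 ± 0.14 (SE, adjusted p = 0.0228) for Col6a1, 0.59 ± 0.16 (SE, adjusted p = 0.0539) for Col6a2 and 1.14 ± 0.21 (SE, adjusted p = 0.0142) for Col6a3, so that Col6a2 missed the threshold. Col6a5, which can replace the third chain, was at 0.09 to 1.24 CPM and did not pass (adjusted p = 0.171).

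Both chains of type VIII, a network collagen of vessel walls and of the cornea, rose in Ti. Col8a1 was at 24.6, 25.3 and 15.3 CPM in naive replicates 1 to 3, 51.0, 60.6 and 33.2 CPM in Ti and 21.3, 27.3 and 21.4 CPM in Ti+I-OG. Col8a2 was at 0.949, 2.34 and 2.51 CPM in naive replicates 1 to 3, 4.49, 7.05 and 3.97 CPM in Ti and 4.91, 5.29 and 5.21 CPM in Ti+I-OG. In Ti+I-OG, Col8a1 was below every Ti library, and Col8a2 was within the range of Ti and above every naive library. The log2 fold change of Ti against naive was 1.15 ± 0.24 (SE, adjusted p = 0.0228) for Col8a1 and 1.43 ± 0.35 (SE, adjusted p = 0.0371) for Col8a2. Without naive replicate 3 and Ti+I-OG replicate 3 both missed the threshold, at adjusted p = 0.0680 for Col8a1 and 0.0688 for Col8a2. In FPKM, the ratio of Col8a1 to Col8a2 was 5.17 to 21.98 in naive, 7.10 to 9.64 in Ti and 3.49 to 4.39 in Ti+I-OG. Col7a1, the anchoring fibril of skin, was at 0.12 to 0.75 CPM in all libraries and gave no call.

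Among the transmembrane collagens, Col13a1, a component of junctions such as that of nerve and muscle, rose. Col13a1 was at 5.51, 4.90 and 2.77 CPM in naive replicates 1 to 3, 9.35, 9.03 and 10.1 CPM in Ti and 7.54, 8.52 and 10.9 CPM in Ti+I-OG. All 6 particle-treated libraries were above naive, with a log2 fold change in Ti of 1.11 ± 0.25 (SE, adjusted p = 0.0286). Col25a1 was at 3.57, 2.66 and 2.81 CPM in naive replicates 1 to 3, 5.38, 5.28 and 3.43 CPM in Ti and 3.92, 3.30 and 4.19 CPM in Ti+I-OG. Col23a1 was at 1.48, 2.10 and 0.922 CPM in naive replicates 1 to 3, 2.88, 2.31 and 1.47 CPM in Ti and 1.09, 1.37 and 1.76 CPM in Ti+I-OG. Both overlapped between naive and Ti and did not pass (adjusted p = 0.140 and 0.375). Col28a1 was at 0.266, 0.327 and 0.587 CPM in naive replicates 1 to 3, 0.378, 0.577 and 1.13 CPM in Ti and 0.347, 1.51 and 1.36 CPM in Ti+I-OG. This chain, outside the main classes, overlapped between all groups (adjusted p = 0.442 in Ti against naive). The 8 chains that did not reach the filter were Col4a3, Col4a4 and Col4a6 of specialised basement membranes, Col6a4 and Col6a6, the skin chain Col17a1, and Col19a1 and Col26a1. They had 2 to 52 counts in all 9 libraries together and at most 20 in a library.

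Adding the hydrogel to the particles gave no collagen call: in Ti+I-OG against Ti, edgeR's quasi-likelihood test called 0 of 36 chains at an adjusted p under 0.05, and 0.0422% of all genes, all of them higher. The chains lay below Ti by direction, with 32 of 36 log2 fold changes under 0 and a median of -0.50 against -0.00313 over all genes, for which 7165 of 14211 were under 0. In 15 chains every Ti+I-OG library was below every Ti library, as in 6.71% of all genes. An unadjusted p under 0.05 was reached by 7 chains and by 7.84% of all genes. These were Col8a1, Col6a1, Col6a3, Col2a1, Col27a1, Col12a1 and Col6a2, all lower. DESeq2 called 1 chain, Col8a1, and limma on counts or on FPKM called 0.

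Col8a1 was the chain with the smallest p. Its libraries were at 21.3, 27.3 and 21.4 CPM in Ti+I-OG against 51.0, 60.6 and 33.2 CPM in Ti, with no overlap. The log2 fold change was -1.05 ± 0.24 (SE, adjusted p = 0.628), with a 95% interval of -1.58 to -0.52. Its adjusted p was 0.0482 by DESeq2, in a range of 0.0448 to 0.999 over all alternatives. Col2a1 differed by -1.20 ± 0.39 (SE, adjusted p = 0.628), Col27a1, a fibrillar collagen of developing cartilage, by -0.95 ± 0.31 (SE, adjusted p = 0.628), and Col12a1 by -0.66 ± 0.22 (SE, adjusted p = 0.628). For the collagen VI chains the difference was -0.50 ± 0.14 (SE) for Col6a1, -0.38 ± 0.16 (SE) for Col6a2 and -0.66 ± 0.21 (SE) for Col6a3, each without overlap. The most abundant chains stayed within wide intervals, -1.32 to 0.11 for Col1a2, -1.37 to 0.24 for Col1a1 and -1.27 to 0.28 for Col3a1, each of which includes 0. Col14a1, Col8a2 and Col13a1 had differences of 0.03 ± 0.24 (SE), -0.01 ± 0.34 (SE) and -0.08 ± 0.25 (SE). The log2 ratio of Col3a1 to Col1a1 in FPKM differed between Ti+I-OG and Ti by 0.01 (exact two-sided permutation p = 1.0), and by -0.70 to 0.62 when a library was left out. This comparison and that of Ti with naive share the Ti libraries, so they are not independent of each other.

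Against naive, Ti+I-OG had 8 of 36 chains higher and 0 lower, where 3.84% of all genes were called higher, 4.43% lower and 8.26% in either direction. They were Col3a1 and Col5a2 of the fibrillar class, the FACIT chains Col12a1, Col14a1 and Col16a1, and Col15a1, Col8a2 and Col13a1, 1 each of the basement membrane, network and transmembrane classes. In 14 chains every Ti+I-OG library was above every naive one, as in 18.7% of all genes, and the median log2 fold change was 0.70 against 0.03 over all genes. All 8 had also passed in Ti against naive, a comparison that shares the naive libraries. Side by side, the log2 fold change against naive was 3.23 ± 0.39 (SE) in Ti and 2.74 ± 0.38 (SE) in Ti+I-OG for Col3a1, 1.81 ± 0.33 (SE) and 1.19 ± 0.33 (SE) for Col5a2, and 1.71 ± 0.23 (SE) and 1.05 ± 0.22 (SE) for Col12a1. It was 1.12 ± 0.24 (SE) and 1.15 ± 0.24 (SE) for Col14a1, 1.22 ± 0.18 (SE) and 0.89 ± 0.18 (SE) for Col16a1, 1.38 ± 0.28 (SE) and 1.09 ± 0.29 (SE) for Col15a1, 1.43 ± 0.35 (SE) and 1.42 ± 0.36 (SE) for Col8a2, and 1.11 ± 0.25 (SE) and 1.03 ± 0.25 (SE) for Col13a1. The adjusted p of Ti+I-OG against naive was 0.00543 for Col3a1, 0.0220 for Col16a1, 0.0267 for Col14a1 and 0.0267 for Col12a1, and 0.0365 to 0.0477 for the other 4.

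The type I and type XI chains did not pass in this comparison. Col1a2 was 1.92-fold above naive with no overlap (adjusted p = 0.0853), Col1a1 1.86-fold with overlap (0.132), Col11a1 2.11-fold (0.0996) and Col11a2 1.49-fold (0.185). Col6a1 and Col8a1, which had risen in Ti, were at 0.15 ± 0.14 (SE) and 0.10 ± 0.24 (SE) on the log2 scale, and Col4a1 and Col4a2 at 0.11 ± 0.25 (SE) and 0.01 ± 0.26 (SE). Deviations of same-numbered libraries of naive and Ti+I-OG correlated weakly, at 0.20, 0.11 and 0.27. Those of the other pairs of groups ran from -0.02 to 0.33. With the replicate number as a block 11 chains were called, adding Col11a1, Col5a1 and Col5a3, while all genes called went from 1174 to 3450. The count of chains also rested on single libraries. It was 1 without naive replicate 3, 1 without Ti+I-OG replicate 1 and 1 without Ti+I-OG replicate 2. All genes called in these fits were 187, 156 and 59. It was 4 without Ti+I-OG replicate 3 and 4 without Ti replicate 1, with 400 and 580 of all genes called. Without naive replicate 3 and Ti+I-OG replicate 3 together, Col3a1 alone passed, at a log2 fold change of 2.72 and adjusted p = 0.00702. Col3a1 also passed in each of 19 other fits of this comparison (9 of them with 1 library left out), with adjusted p up to 0.0283, and Col3a1, Col12a1 and Col16a1 did so for Ti against naive.

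The deposited counts and FPKM values together imply a mean transcript length for each gene and library, which shifts when the estimated mix of long and short transcripts shifts. It could be computed for 24 chains with at least 50 counts in every library. For 8 of them, Col1a1 included at 5930.0 bases, it varied by under 1% over the libraries. For Col12a1 it was 4824, 6553 and 7185 bases in naive, 3473, 3203 and 3802 in Ti and 3043, 2751 and 3746 in Ti+I-OG. Col6a3 went the other way, with 7306, 5172 and 6404 bases in naive, 8566, 8898 and 8875 in Ti and 8267, 8989 and 9018 in Ti+I-OG. In both genes naive was apart from the other groups without overlap. Alternative transcripts that differ in their large amino-terminal domains are known for both. Col11a1 differed by -9.56%, from 5112 ± 170 bases in naive to 4624 ± 139 in Ti (SD, n = 3), without overlap. Among all 11051 genes with such a length, 9.08% had groups that did not overlap and means over 5% apart between Ti and naive, and 3 of the 24 chains did, a share close to that of all genes.

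**Figure D5:**
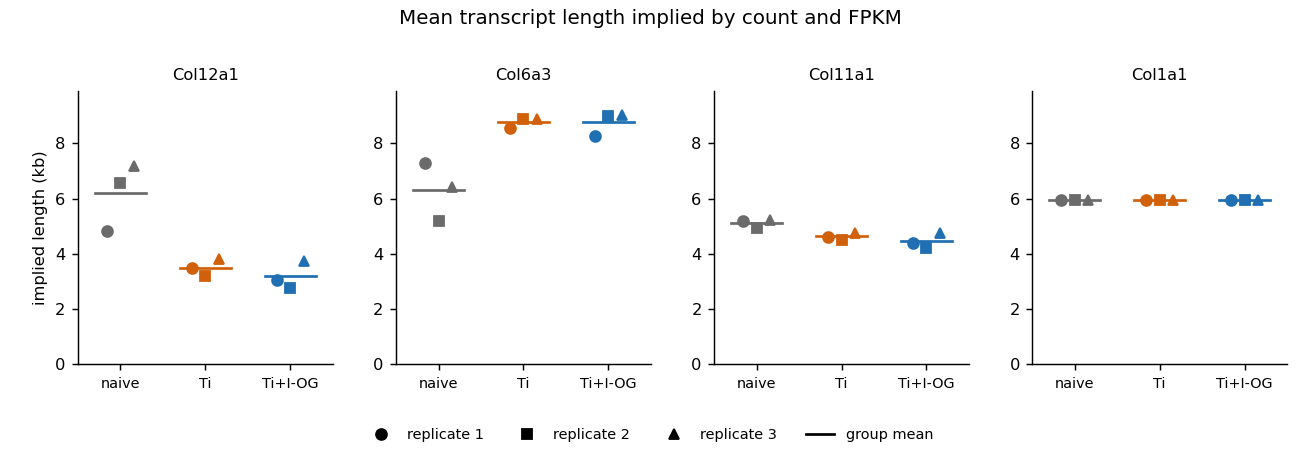
Mean transcript length in kilobases implied by the deposited count and FPKM (y axis from 0, 1 point per library, line at the group mean) for Col12a1, Col6a3, Col11a1 and Col1a1. Naive is above both other groups for Col12a1, below them for Col6a3 and slightly above for Col11a1, and Col1a1 is level at 5930.0 bases.

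The counts and the FPKM values gave different sizes for these chains. For Col12a1, the log2 difference of Ti from naive was 1.71 on counts and 2.41 in limma on log2(FPKM + 0.1). For Col6a3 it was 1.14 on counts, with adjusted p = 0.0142, and 0.56 on log2(FPKM + 0.1), with adjusted p = 0.219. An offset on the counts for a trend over each gene's median length, which does not use the length of a gene in each library, gave 1.66 for Col12a1 and 1.27 for Col6a3.

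The genes that make, join, bind and remove collagen were read from lists by role, beside 4.05% of all genes called higher and 2.39% called lower in Ti against naive. Of 22 genes for modification and folding in the endoplasmic reticulum, 6 rose in Ti and 0 fell, led by P4ha3, a prolyl hydroxylase subunit, at 2.26 ± 0.46 (SE, adjusted p = 0.0205), Plod2, a lysyl hydroxylase of the telopeptides, at 1.55 ± 0.31 (SE, adjusted p = 0.0206), and Sparc, a collagen-binding glycoprotein of bone, at 1.57 ± 0.33 (SE, adjusted p = 0.0228) on the log2 scale. Of 12 processing and crosslinking genes 4 rose and 0 fell. Pcolce, the enhancer of propeptide cleavage, was at 0.97 ± 0.19 (SE, adjusted p = 0.0170), Lox, lysyl oxidase, at 1.54 ± 0.30 (SE, adjusted p = 0.0171) and Bmp1, the carboxy-propeptide protease, at 0.87 ± 0.19 (SE, adjusted p = 0.0251). Of 13 receptors 3 rose and 0 fell: Oscar, a collagen receptor of osteoclasts, at 1.48 ± 0.29 (SE, adjusted p = 0.0183), the integrin chain Itga10 at 0.91 ± 0.20 (SE, adjusted p = 0.0265) and the endocytic receptor Mrc2 at 0.68 ± 0.17 (SE, adjusted p = 0.0362). Of 11 tested degradation genes, a list that also holds inhibitors of degradation, 6 rose and 0 fell. The osteoclast protease Ctsk was at 1.62 ± 0.22 (SE, adjusted p = 0.00377), the gelatinase Mmp2 at 1.57 ± 0.23 (SE, adjusted p = 0.00584) and the inhibitor Timp2 at 0.76 ± 0.14 (SE, adjusted p = 0.0167). Of 14 tested transcription factors of collagen genes 5 rose and 0 fell, with the tendon factor Mkx at 2.24 ± 0.47 (SE, adjusted p = 0.0228), the mesenchymal factor Prrx1 at 1.18 ± 0.25 (SE, adjusted p = 0.0236) and Sox9 of cartilage at 1.83 ± 0.41 (SE, adjusted p = 0.0268).

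In Ti+I-OG against Ti edgeR called 0 genes of these lists, with an unadjusted p under 0.05 for 3 of the first list, 1 of the second, 1 of the third, 0 of the degradation genes and 4 of the transcription factors, where 7.84% of all genes reached it. Egr2 had the largest difference among the transcription factors at -1.58 ± 0.57 (SE, adjusted p = 0.628), Sox9 was at -1.28 ± 0.41 (SE, adjusted p = 0.628) and P4ha3 at -1.16 ± 0.43 (SE, adjusted p = 0.628). Against naive, Ti+I-OG had Crtap of the prolyl 3-hydroxylase complex, Pcolce, Lox, Oscar, Mrc2, Ctsk, Mmp2, Timp2 and Mmp14 higher, 9 in all, and none lower. By list, these were 1 of 22 modification genes, 2 of 12 processing genes and 2 of 13 receptors. The rest were 4 of 11 tested degradation genes, and 0 of 14 tested transcription factors were called. Of all genes tested, 3.84% were called higher and 4.43% lower in this comparison. Ctsk was at 1.37 ± 0.22 (SE, adjusted p = 0.0106) and Mmp2 at 1.18 ± 0.23 (SE, adjusted p = 0.0199).

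Cells that make these chains were followed by their markers. The 12 tendon and fibrous tissue markers, among them Tnmd, Fmod and Lum, summed to 292 to 522 CPM in naive, 995 to 2171 in Ti and 683 to 1340 in Ti+I-OG, and 9 of 12 passed as higher in Ti against naive, where 4.05% of all genes did. Osteoblast markers summed to 963 to 2234, 3029 to 4038 and 2186 to 3485 CPM in the same order, with 5 of 10 higher in Ti. Chondrocyte markers had 3 of 11 tested genes higher in Ti, and pericyte and smooth muscle markers 4 of 10. Muscle markers ran from 890 to 2574, 2008 to 7190 and 3095 to 5486 CPM in naive, Ti and Ti+I-OG. In Ti against naive, 12 of 12 muscle markers had a log2 fold change above 0, with a median of 1.35. An unadjusted p under 0.05 in edgeR's test was reached by 11 of them and by 3821 of 14211 genes, and 2 were called. Naive and Ti overlapped in 11 of 12. Of 8 tested Schwann cell markers 2 were called higher, with a median of 1.16. The tendon, chondrocyte and osteoblast sums reached their highest values in Ti and their lowest in naive, as did Col1a2 and Col3a1. Within Ti, the Col3a1 level was highest in replicate 2 and lowest in replicate 3, while Col1a1 was highest in replicate 3. The tendon sum was highest and lowest in the same replicates as Col3a1. So were the osteoblast, chondrocyte, muscle, pericyte and smooth muscle, and Schwann cell sums, so this order was not particular to tendon. The part of tissue content in the collagen differences was not tested.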

How the data were processed

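RNA-seq of 9 mouse tibia libraries (poly(A) RNA, NEBNext Ultra kit, Illumina sequencing, per the labels' protocols) was used. For each gene and library the authors deposited 2 values, an estimated count and its FPKM. The tools in the submitters' processing notes are StringTie 1.3.1, RSEM, fastp, edgeR and DESeq2, with no roles, and neither aligner nor genome build is named in the sources used here. Groups and replicate numbers came from the titles. Counts were rounded, and filterByExpr kept 14211 of 22183 genes. One edgeR 4.0.16 fit (R 4.3.3) of all 9 libraries used TMM normalisation, the quasi-likelihood test (two-sided) and Benjamini-Hochberg adjustment over all genes tested, threshold 0.05, with 6 residual degrees of freedom. The fit was also run on simulated counts, with the same spread set for every gene and no outlying library. That run does not bear on calls that rest on single libraries. Alternatives used DESeq2 1.42.0, limma 3.58.1 (on counts, and on log2 of FPKM + 0.1 or + 1), other scalings and filters, a replicate block, and each library left out.

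Values per library were given for the 3 chains of highest mean FPKM in each class and every chain called, and up to 3 genes of each list by p were named. The members and lists were chosen with earlier results of these data known. Same-numbered libraries correlated at -0.02, 0.33 and 0.24 (naive and Ti), 0.07, 0.20 and 0.22 (Ti and Ti+I-OG) and 0.20, 0.11 and 0.27 (naive and Ti+I-OG) in their deviations from group means; no source says what a number shares. Libraries of 1 group differed by more than counting noise, with chi-square over its degrees of freedom at 12.9 to 132. Exon overlaps were read from GENCODE M21, which held all 44 identifiers, and besides Col4a1 with Col4a2 they joined Col9a3 to Tcfl5 and Col10a1 to Nt5dc1 on opposite strands, so these counts are uncertain. Promoter sequences are RefSeq's. With no count in a library, 3 counts, the floor, equal 0.121 to 0.185 CPM.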

Additional observations from a re-analysis of the deposited data

How the results depend on the processing

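The number of collagen chains called in Ti vs naive (18) was 10 with the 2 groups fitted alone and 11 in limma on log2(FPKM + 0.1), and 3 to 19 with 1 library left out. With the replicate block 25 chains were called in Ti vs naive and 11, against 8 without it, in Ti+I-OG vs naive. The count of 8 was 4 with the 2 groups alone, 5 with an offset for a trend over gene length, 1 without naive replicate 3 and Ti+I-OG replicate 3 (an alternative chosen after seeing the data), and 1 to 8 with 1 library left out. In Ti+I-OG vs Ti, DESeq2 called 1 chain, the replicate block 1 (Col8a1 in both), and fits without 1 library 0. Of the 18 chains called in Ti vs naive 3 passed in all 19 other fits and of the 8 called in Ti+I-OG vs naive 1 did; no called chain changed sign. Values of uncalled chains changed sign in 13 chains in Ti+I-OG vs naive, 6 in Ti+I-OG vs Ti and 1 in Ti vs naive.

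All genes called in Ti vs naive (914) numbered 1817 with DESeq2, 357 with 2 groups alone, 2968 with the block, 544 and 556 in limma on FPKM, 282 without both libraries, and 100 to 1999 without 1. In Ti+I-OG vs naive (1174) they were 2407, 770, 3450, 1853 and 1787, and 122 in the same order, 2402 on total counts without TMM (361 higher and 2041 lower, against 545 and 629, and in limma on FPKM 317 and 1536 with + 0.1 and 290 and 1497 with + 1), 424 with the length offset, and 59 to 2119 without 1 library. The split in Ti vs naive, 575 higher and 339 lower, was 476 and 444 on total counts and 476 and 441 with the length offset. In Ti+I-OG vs Ti (6) they were 14 with DESeq2, 3 on total counts, 2 without both libraries and 0 to 6 without 1. Total counts moved the median log2 fold change of all genes by -0.20 in Ti+I-OG vs naive and by -0.12 in Ti+I-OG vs Ti, limma on log2(FPKM + 0.1) by -0.20 in the first. The log2 ratio of Col3a1 to Col1a1 differed by 1.11 to 2.43 in Ti vs naive, 1.40 to 2.32 in Ti+I-OG vs naive and -0.70 to 0.62 in Ti+I-OG vs Ti without 1 library. The cause of these changes was not tested. Fits without 1 library also have fewer degrees of freedom, and their counts of all genes called in Ti vs naive went both up and down. At low counts the intervals were wide: for Col20a1, at 0.14 to 0.84 CPM, the 95% interval of the log2 fold change in Ti vs naive was -1.97 to 0.96.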
